A study of Mus musculus with 9 samples.

Results

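The lens capsule is the basement membrane that encloses the lens. The genes described here are 35 genes for its structural proteins, for other matrix proteins of the lens and for the integrins that bind them. They were chosen by gene name and comprise 6 type IV collagen chains, 7 laminin chains, 6 linker proteins and proteoglycans, 4 matricellular or other matrix proteins, 6 integrin alpha chains, 4 integrin beta chains, and *Ilk* with *Pxdn*, which encode an integrin-linked kinase and a collagen-crosslinking peroxidase. All 35 symbols were found among the 47729 genes listed for each sample, and all 35 were among the 15557 genes with enough counts to be tested.

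RNA-Seq measured polyadenylated RNA of whole lenses from newborn mice at postnatal day 0. The 3 lines were *P0-3.9GFPCre* and *Le-Cre*, both with the transgene in hemizygous form, and non-transgenic *FVB/N*. Each line had 3 pools, and a pool held 6 lenses taken from 3 mice. Both transgenic lines were on the *FVB/N* background, had no floxed gene in their stated genotype, and co-expressed CRE recombinase and GFP from elements of the *Pax6* P0 promoter, which acts in the surface ectoderm that forms the lens. Each line carries its transgene at an integration site of its own, so effects of CRE, of GFP, of the promoter fragment and of the site cannot be told apart by comparing these lines. Lenses of several mice were pooled, so single animals were not measured. The comparisons ask whether carrying either transgene was accompanied by a difference in the capsule and integrin genes.

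Type IV collagen chains join as trimers into a network, laminin trimers form another network, and nidogens and perlecan (*Hspg2*) link the networks. Lens epithelial and fibre cells secrete this material and hold on to it through integrins, which are pairs of 1 alpha and 1 beta chain. The integrins pass the attachment on to the cytoskeleton through proteins that include ILK, and the capsule goes on thickening as the lens grows.

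Total expected counts were between 20670968 and 28098059 per pool, and crystallins took 39.1% to 43.0% of them. Lens fibre markers such as *Mip* (4385 ± 264 TPM in *FVB/N*, SD, n = 3) and lens epithelial markers such as *Foxe3* (38.2 ± 8.37 TPM) were high in all lines. Of 8 markers of cornea and surface ectoderm, *Krt12*, *Krt14*, *Trp63* and *Kera* were at 0 in every pool, and 7 had a mean under 1 TPM. The exception was *Perp*, at 9.33 ± 0.413 TPM in *FVB/N*, 11.9 ± 2.05 in *P0-3.9GFPCre* and 14.5 ± 1.34 in *Le-Cre*. As normalised read counts, its pools did not overlap in any comparison. Over all genes tested, pools did not overlap for 13.5% in *Le-Cre* against *FVB/N*. The shares were 12% in *P0-3.9GFPCre* against *FVB/N* and 14.1% in *Le-Cre* against *P0-3.9GFPCre*. With the other 7 markers under 1 TPM, *Perp* alone does not measure the amount of cornea or surface ectoderm. The 12 markers of blood vessel endothelium summed to between 47.1 and 71.8 TPM over the 9 pools. Since the RNA came from whole lenses, fewer cells of a type and less RNA per cell cannot be told apart. The share of counts on Y-linked genes was 0.0220% to 0.0300% in *FVB/N*, 0.0119% to 0.0261% in *P0-3.9GFPCre* and 0.00837% to 0.0160% in *Le-Cre*. These shares point to a sex make-up of the pools that was not balanced between lines. The labels give no sex, so this was inferred from the shares only.

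The 6 type IV collagen genes lie as 3 head-to-head pairs, and the stretches where the pairs start are shown because the partners are compared below. All coordinates are on GRCm38, gene spans are those of GENCODE M21 and sequences those of RefSeq on GRCm38.p6. *Col4a1* (chr8:11198423-11312826, minus strand) and *Col4a2* (chr8:11312805-11449287, plus strand) overlap by the first 22 bases of their first exons. *Col4a4* (chr1:82448423-82586849, minus strand) and *Col4a3* (chr1:82586921-82722059, plus strand) start 71 bases apart. *Col4a6* (chrX:141165403-141474076, minus strand) and *Col4a5* (chrX:141475385-141689234, plus strand) have 1308 bases between their starts, and the 250 bases before *Col4a6* are shown. The last sequence is the 216 bases that precede *Hspg2* (chr4:137468769-137570630, plus strand). *Hspg2* is another abundant capsule gene, with an unadjusted p under 0.05 by edgeR in *Le-Cre* against *FVB/N* but not called there. Each is printed 5′ to 3′, the *Col4a6* stretch on the minus strand and the others on the plus strand. Capitals mark the GC box GGGCGG or its reverse complement CCGCCC.
*Col4a1* and *Col4a2*, chr8:11312805-11312826: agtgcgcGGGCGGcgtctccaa
*Col4a4* and *Col4a3*, chr1:82586850-82586920: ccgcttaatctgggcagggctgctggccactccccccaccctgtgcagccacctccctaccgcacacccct
*Col4a6*, chrX:141474077-141474326: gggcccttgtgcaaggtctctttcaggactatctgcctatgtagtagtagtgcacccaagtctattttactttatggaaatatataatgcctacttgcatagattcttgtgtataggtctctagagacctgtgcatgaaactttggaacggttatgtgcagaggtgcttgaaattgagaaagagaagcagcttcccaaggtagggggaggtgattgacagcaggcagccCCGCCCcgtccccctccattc
*Hspg2*, chr4:137468553-137468768: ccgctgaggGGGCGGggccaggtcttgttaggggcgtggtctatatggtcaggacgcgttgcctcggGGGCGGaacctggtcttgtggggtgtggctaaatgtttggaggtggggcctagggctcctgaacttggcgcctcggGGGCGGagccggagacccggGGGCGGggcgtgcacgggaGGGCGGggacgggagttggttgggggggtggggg

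The stretch before *Hspg2* held 5 GC boxes, the overlap of *Col4a1* and *Col4a2* held 1, and the 71 bases between *Col4a4* and *Col4a3* held 0. Promoter windows of 300 bases (250 before to 50 after the start) were at hand for 26 of the 35 genes, in 30 windows. On either strand, 22 of these 30 windows (73.3%) contained GGGCGG, against 35.7% of 32851 windows of all genes. The TATA element TATAAA was in 0 of the 30 windows and in 13.6% of all windows, and CCAAT was in 9 of the 30 (30.0%) and in 37.4% of all. Motifs were counted separately, so matches may overlap, and a match describes the letters only. Some genes had more than 1 window, and the windows of *Col4a1* and *Col4a2* share bases. The windows of all genes were not limited to the genes tested, so the shares are a description and not a test.

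Levels between genes were compared in TPM, which the authors' tables scale for transcript length. In *FVB/N* lenses, 6 of the 35 genes were at 100 TPM or more, 15 were between 10 and 100 TPM, 10 were between 1 and 10 TPM and 4 were below 1 TPM. The 35 genes together made up 3169 ± 183 TPM, and the 7 highest genes held 79.3% of that sum. Neighbours in the order of levels were often not separated: for 21 of the 34 neighbouring pairs the ranges of the *FVB/N* pools overlapped.

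**Figure D1:**
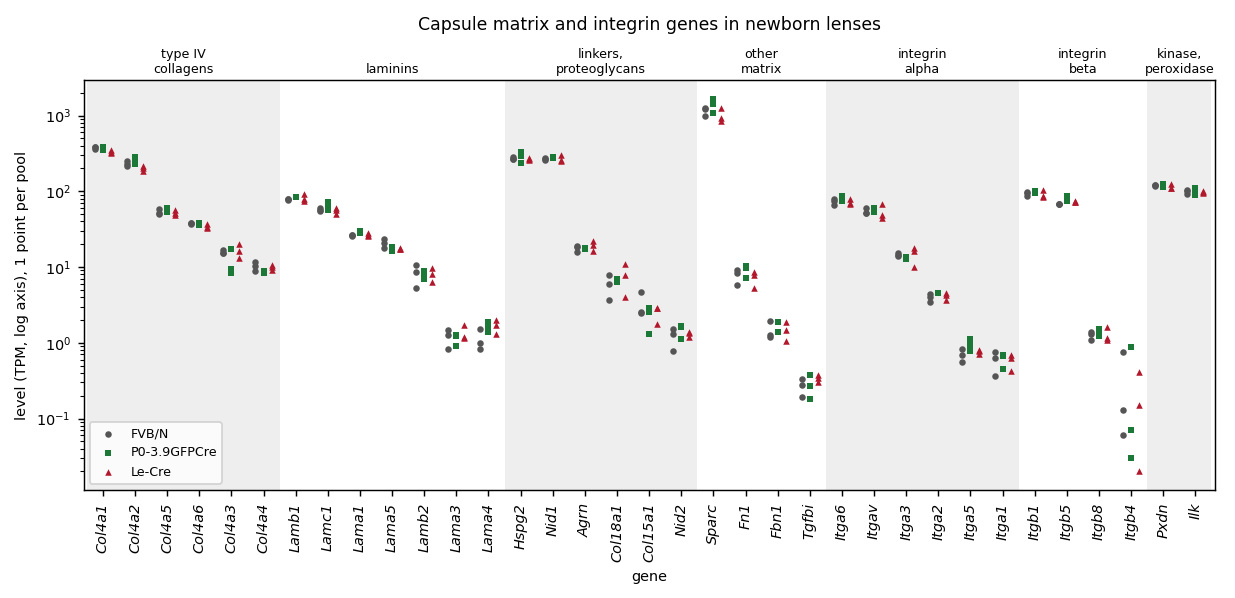
Levels of the 35 genes in TPM on a log axis, 1 point per pool (3 pools each of *FVB/N*, *P0-3.9GFPCre* and *Le-Cre*), grouped by role and ordered by the *FVB/N* mean. The genes span from *Tgfbi* at 0.267 TPM to *Sparc* at 1149 TPM in *FVB/N*, and the points of the 3 lines largely overlie each other, with a wide scatter for *Itgb4*.

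Of the type IV collagens, *Col4a1* and *Col4a2*, the chains of the common α1α1α2 trimer, were the highest. The *Col4a1* level was 383, 389 and 357 TPM in the *FVB/N* pools, 368, 352 and 382 TPM in *P0-3.9GFPCre* and 319, 356 and 328 TPM in *Le-Cre*. All 3 *Le-Cre* values lay below the lowest *FVB/N* value on this scale. *Col4a2* was at 230.3 ± 17.2 TPM in *FVB/N* (SD, n = 3 here and for each level below). The chains of the α5 and α6 trimers were next, with *Col4a5* at 53.7 ± 4.52 TPM and *Col4a6* at 37.8 ± 0.548 TPM. *Col4a3* at 15.7 ± 0.869 TPM and *Col4a4* at 10.2 ± 1.31 TPM, chains of the α3α4α5 trimer of mature basement membranes, were the lowest of the family. The order of the last pair depended on length: *Col4a4* had more reads than *Col4a3* (96.7 against 41.6 CPM, the read count scaled to the normalised library size), and RSEM's effective length for *Col4a3* ranged from 2179 to 4340 bases over the 9 pools.

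Among the laminins, the β1 and γ1 chains led, with *Lamb1* at 77.5, 78.5 and 78.9 TPM in *FVB/N*, 85.2, 83.4 and 84.6 TPM in *P0-3.9GFPCre* and 75.4, 91.9 and 79.8 TPM in *Le-Cre*. The *Lamb1* pools of *P0-3.9GFPCre* were all above those of *FVB/N* in TPM, whereas in CPM the lines overlapped (286 to 308 CPM against 291 to 302 CPM). *Lamc1* was at 56.9 ± 2.25 TPM. The α chains that can join them were *Lama1* (26.3 ± 0.320 TPM) and *Lama5* (20.6 ± 2.56 TPM), the chains of laminin-111 and laminin-511. *Lamb2*, the alternative β chain, was at 8.18 ± 2.72 TPM, and *Lama3* and *Lama4*, α chains of epithelial junctions and of vessels, were at 1.19 ± 0.316 and 1.10 ± 0.354 TPM.

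Of the linkers and proteoglycans, *Hspg2* (perlecan, a heparan sulphate proteoglycan) was at 268, 268 and 282 TPM in *FVB/N*, 236, 330 and 289 TPM in *P0-3.9GFPCre* and 257, 277 and 267 TPM in *Le-Cre*, and all lines overlapped. *Nid1*, the nidogen that bridges laminin and type IV collagen, was close to it at 267 ± 11.1 TPM, and its paralogue *Nid2* was at 1.21 ± 0.377 TPM. *Agrn* (agrin) was at 17.7 ± 1.77 TPM. The collagens with endostatin-type domains, *Col18a1* and *Col15a1*, were at 5.84 ± 2.06 and 3.21 ± 1.24 TPM.

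*Sparc*, a collagen-binding matricellular protein, had the highest level of the 35 genes and made up 36.3% of their summed TPM in *FVB/N*. Its level was 1251, 1211 and 985 TPM in *FVB/N*, 1091, 1650.2 and 1422 TPM in *P0-3.9GFPCre* and 858, 1266 and 942 TPM in *Le-Cre*. The pools of all lines overlapped, and the spread within *P0-3.9GFPCre* was the widest. Fibronectin (*Fn1*) was at 7.72 ± 1.74 TPM, fibrillin-1 (*Fbn1*, a component of the zonule that suspends the lens) at 1.48 ± 0.418 TPM and *Tgfbi* at 0.267 ± 0.0709 TPM.

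The integrin alpha chains were headed by *Itga6*, the laminin-binding α6 chain, at 75.3, 78.2 and 65.7 TPM in *FVB/N*, 73.9, 86.0 and 85.6 TPM in *P0-3.9GFPCre* and 69.0, 79.6 and 68.7 TPM in *Le-Cre*. The lines overlapped. *Itgav*, whose partners bind RGD-containing ligands, was at 54.8 ± 4.68 TPM, *Itga3* (laminin-binding) at 14.6 ± 0.514 TPM and *Itga2* (collagen-binding) at 3.96 ± 0.526 TPM. The fibronectin receptor chain *Itga5* and the collagen receptor chain *Itga1* were at 0.687 ± 0.135 and 0.577 ± 0.199 TPM.

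Of the beta chains, *Itgb1*, the partner of most of these alpha chains, was at 96.6, 94.3 and 87.1 TPM in *FVB/N*, 95.4, 100.2 and 99.98 TPM in *P0-3.9GFPCre* and 84.8, 103.9 and 86.1 TPM in *Le-Cre*, with overlap between lines. *Itgb5*, a partner of the αv chain, was at 67.4 ± 0.748 TPM. *Itgb8*, another αv partner, was at 1.27 ± 0.150 TPM. *Itgb4*, the α6 partner of hemidesmosomes, had between 2 and 22 counts per pool, and 0.313 ± 0.380 TPM gives no usable level for it.

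*Pxdn* encodes peroxidasin, which forms the sulfilimine crosslinks of type IV collagen, and was at 122, 120.0 and 117 TPM in *FVB/N*, 126, 123 and 113 TPM in *P0-3.9GFPCre* and 109, 124 and 111 TPM in *Le-Cre*. The lines overlapped in TPM. *Ilk* was listed at 98.1 ± 5.68 TPM, but 68.9% of its 51-base sequences also occur in transcripts of the overlapping gene *Taf10*, so its level is uncertain. For *Fbn1* that share was 19.7% (with *Gm9913*), and for the other 33 genes it was 7.48% or less.

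In the comparison of *Le-Cre* with *FVB/N*, 0 of the 35 genes were called (a difference of 1.5-fold or more together with an adjusted p not above 0.05), while 0.0643% of all genes tested were called. By edgeR's quasi-likelihood test, 4 of the 35 had an unadjusted p under 0.05, all with lower values in *Le-Cre*: *Col4a1*, *Col4a2*, *Col4a6* and *Hspg2*. Over all genes tested 7.94% had such a p, 4.35% with lower values and 3.6% with higher values. DESeq2 likewise called 0 of the 35 and had 4 at an unadjusted p under 0.05. Its share over all genes was 3.99% without a prior and 3.6% with one. The count by limma on log2(TPM + 0.5) was 0 called and 3 with such a p, where 6.34% of all genes had one. The log2 fold changes of the 35 ranged from -0.26 (*Itgb4*) to 0.34 (*Col18a1*), with a median of -0.03 against -0.0040 for all genes tested, and 23 of the 35 (65.7%) were below 0 against 51% of all genes.

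The normalised count of *Col4a1* was 1630.1, 1660.0 and 1606 CPM in the *FVB/N* pools and 1501, 1449 and 1533 CPM in the *Le-Cre* pools. The groups did not overlap, and the log2 fold change was -0.13 (SE 0.0552, edgeR unadjusted p = 0.0418, adjusted p = 0.608), or 8.44% lower. *Col4a2* was at 1268, 1338 and 1146 CPM in *FVB/N* and at 1079.6, 1052 and 1173 CPM in *Le-Cre*. The highest *Le-Cre* pool, replicate 3, lay above the lowest *FVB/N* pool, also replicate 3, so the groups overlapped. The log2 fold change of *Col4a2* was -0.18 (SE 0.0784, edgeR unadjusted p = 0.0394, adjusted p = 0.601).

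*Col4a6* was at 232, 232 and 247 CPM in *FVB/N* and at 209, 216 and 209 CPM in *Le-Cre*, without overlap. Its log2 fold change was -0.17 (SE 0.0577, edgeR unadjusted p = 0.0153, adjusted p = 0.504), the smallest p of the 35 genes in this comparison. *Col4a6* and *Col4a5* are X-linked, and the *Le-Cre* pools had the lower Y-linked shares given above. When the Y-linked share was added to the fit the log2 fold change of *Col4a6* was -0.13 and its edgeR unadjusted p was 0.231. The shares of *Le-Cre* and *FVB/N* did not overlap, so this fit cannot tell line and sex make-up apart, here or for the genes below. Over all genes tested, 3.45% had an unadjusted p under 0.05 in it, against 7.94% without the share, and 0 were called.

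*Hspg2* was at 1270.0, 1369 and 1433 CPM in *FVB/N* and at 1180.0, 1116 and 1246 CPM in *Le-Cre*. All *Le-Cre* pools lay below the lowest *FVB/N* pool, and the log2 fold change was -0.20 (SE 0.0767, edgeR unadjusted p = 0.0240, adjusted p = 0.555). In TPM the *Hspg2* pools overlapped, as listed above, and limma on log2(TPM + 0.5) gave -0.03 with an unadjusted p of 0.803. The effective length that RSEM assigned to *Hspg2* ranged from 4298 to 5498 bases over the pools, so the difference in reads did not appear as a difference per length.

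*Col4a1*, *Hspg2* and *Col4a2* are among the 5 most abundant of the 35 genes in TPM, and *Col4a6* ranked 15. All 6 type IV collagens had log2 fold changes below 0, from -0.18 for *Col4a2* to -0.03 for *Col4a3*. Their summed share of all counts was 0.331% to 0.3601% in *FVB/N* and 0.318% to 0.325% in *Le-Cre*, without overlap. Of the 8 lens epithelial markers, all 8 had log2 fold changes below 0 as well, with a median of -0.15, and their summed level was 318 to 358 TPM in *FVB/N* and 291 to 334 TPM in *Le-Cre*. Of the markers of pericytes and mesenchyme, 6 of the 9 tested were below 0 with a median of -0.12. All 10 summed to 40.4 to 43.3 TPM in *FVB/N* and to 32.9 to 40.3 TPM in *Le-Cre*. Most of that sum was *Pdgfra*, at 30.8 ± 0.465 TPM in *FVB/N* and 24.9 ± 1.26 TPM in *Le-Cre*. *Rgs5*, the next highest, was not lower, at 5.74 ± 1.95 and 6.53 ± 1.91 TPM. *Col1a1* was very low in both, at 0.273 ± 0.188 and 0.0267 ± 0.0115 TPM. The lower sum thus mainly reflects *Pdgfra* and not the marker list as a whole. It is therefore no measure of the amount of pericytes or mesenchyme in the lenses. The part of these cell types in the collagen and *Hspg2* values was not tested.

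Pools did not overlap between *Le-Cre* and *FVB/N* for 6 of the 35 genes (17.1%), against 13.5% of all genes tested (7.03% lower and 6.46% higher). Besides *Col4a1*, *Col4a6* and *Hspg2* these were *Lama5* and *Pxdn*, lower in *Le-Cre*, and *Itgb5*, higher in *Le-Cre*. *Lama5* had a log2 fold change of -0.09 (edgeR unadjusted p = 0.162), *Pxdn* -0.10 (edgeR unadjusted p = 0.0925) and *Itgb5* 0.10 (edgeR unadjusted p = 0.219). None of the 6 integrin alpha chains had an unadjusted p under 0.05, and their log2 fold changes ran from -0.07 (*Itga3*) to 0.11 (*Itga5*).

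The precision was high for the abundant genes. The SE of the log2 fold change had a median of 0.0997 over the 35 genes, and for 29 of the 35 the 95% interval of the *Le-Cre* difference lay wholly inside 1.5-fold in both directions. The 6 exceptions were *Lama3*, *Col18a1*, *Col15a1*, *Tgfbi*, *Itga1* and *Itgb4*, all at or under 27.8 CPM in *FVB/N*, whose intervals reached beyond 1.5-fold in at least one direction. With 3 pools against 3, the smallest two-sided p that exact permutation of a single gene's pools allows is 0.1. Of the 18 alternative analyses tried, 8 gave an unadjusted p under 0.05 for *Col4a1*, 11 for *Col4a2*, 12 for *Hspg2* and 15 for *Col4a6*, and none called any of them.

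**Figure D2:**
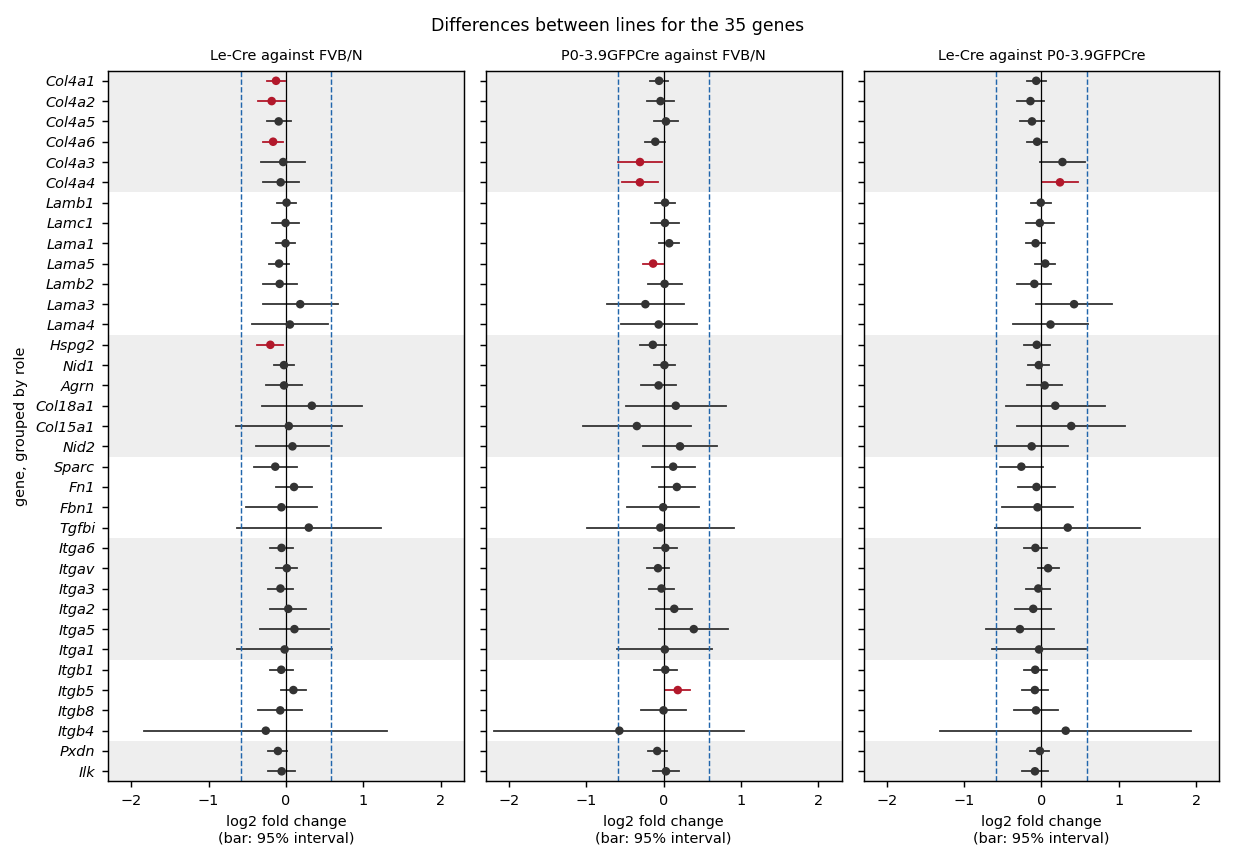
Log2 fold changes of the 35 genes (points) with 95% intervals (bars) in the 3 comparisons, grouped by role. Red marks an unadjusted p under 0.05 in edgeR's quasi-likelihood test and the dashed blue lines mark 1.5-fold. All red points lie within 1.5-fold, and the wide bars belong to genes of low count such as *Itgb4* and *Tgfbi*.

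The comparison of *P0-3.9GFPCre* with *FVB/N* used the same 3 *FVB/N* pools, so the comparisons of the transgenic lines with *FVB/N* were not independent. Again 0 of the 35 genes were called, against 0% of all genes tested. By edgeR's quasi-likelihood test, 4 of the 35 had an unadjusted p under 0.05, against 6.81% of all genes (3.41% with lower and 3.41% with higher values). Of these 4, *Col4a3*, *Col4a4* and *Lama5* had lower and *Itgb5* had higher values in *P0-3.9GFPCre*. DESeq2 called 0 and had 4, against 3.54% of all genes without a prior and 3.26% with one. With limma on log2(TPM + 0.5) 0 were called and 2 had such a p, against 7.78% of all genes. The median log2 fold change of the 35 was -0.0017, and 18 of the 35 (51.4%) were below 0 against 50% of all genes.

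*Col4a4* was at 109.6, 81.5 and 98.9 CPM in *FVB/N* and at 72.9, 83.2 and 78.3 CPM in *P0-3.9GFPCre*. Only the lowest *FVB/N* pool, replicate 2, lay within the range of the *P0-3.9GFPCre* pools. The log2 fold change of *Col4a4* was -0.31 (SE 0.107, edgeR unadjusted p = 0.0152, adjusted p = 0.651). Its neighbour *Col4a3* was at 49.3, 36.9 and 38.7 CPM in *FVB/N* and at 28.3, 33.6 and 39.1 CPM in *P0-3.9GFPCre*, with overlap. *Col4a3* also had a log2 fold change of -0.31 (SE 0.130, edgeR unadjusted p = 0.0377, adjusted p = 0.693). Both partners were 19.2% and 19.1% lower by these estimates. *FVB/N* replicate 1 was the highest pool for both genes, and without it the log2 fold changes were -0.21 (edgeR unadjusted p = 0.0820) for *Col4a4* and -0.16 (edgeR unadjusted p = 0.202) for *Col4a3*. Of the bases of *Col4a3* exons, 5.65% are overlapped by *C430014B12Rik*, and reads there cannot be assigned to a strand from the protocol at hand.

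*Lama5* was at 127.6, 130.1 and 139 CPM in *FVB/N* and at 117, 118 and 125.7 CPM in *P0-3.9GFPCre*, without overlap. Its log2 fold change was -0.14 (SE 0.0584, edgeR unadjusted p = 0.0391, adjusted p = 0.699), and limma on log2(TPM + 0.5) gave -0.24. *Itgb5* was at 188.8, 190.5 and 190.3 CPM in *FVB/N* and at 203, 203 and 240.4 CPM in *P0-3.9GFPCre*. All *P0-3.9GFPCre* pools lay above *FVB/N*, with replicate 3 apart from the other pools. The log2 fold change of *Itgb5* was 0.18 (SE 0.0745, edgeR unadjusted p = 0.0326, adjusted p = 0.674), and it was 0.10 without *P0-3.9GFPCre* replicate 3 and 0.08 when the Y-linked share was added to the fit.

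Pools did not overlap for 5 of the 35 genes (14.3%), against 12% of all genes tested (5.94% lower and 6.02% higher). These were *Lama5* and *Itgb5* with *Col4a1*, *Col4a6* and *Pxdn*, the last 3 lower in *P0-3.9GFPCre*. *Col4a1* had a log2 fold change of -0.06 (edgeR unadjusted p = 0.307), *Col4a6* -0.11 (edgeR unadjusted p = 0.0870) and *Pxdn* -0.08 (edgeR unadjusted p = 0.163). The 95% interval lay inside 1.5-fold for 26 of the 35 genes, and *Col4a3* was the most abundant of the 9 for which it did not, with bounds of -0.59 and -0.02 on the log2 scale.

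**Figure D3:**
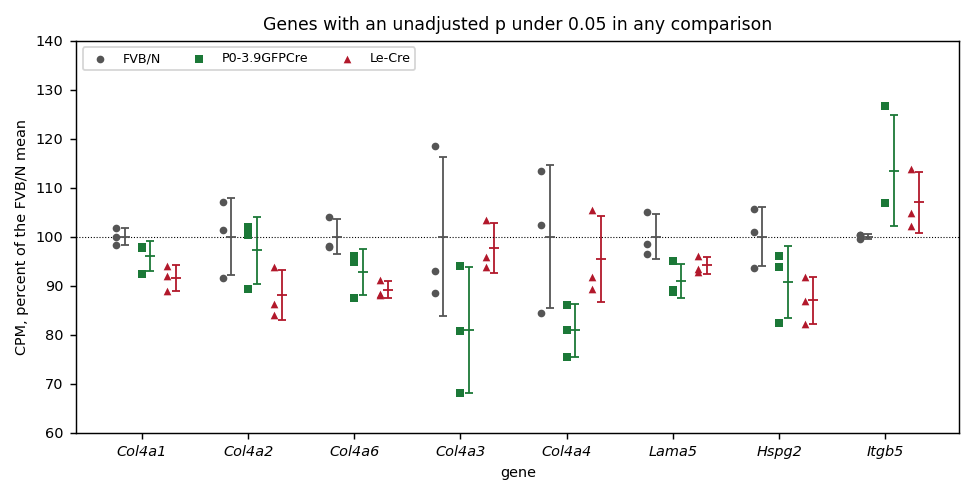
Normalised counts (CPM) of the 8 genes with an unadjusted p under 0.05 in any comparison, each as percent of its *FVB/N* mean, with 1 point per pool and bars giving the mean and SD of 3 pools. The *Le-Cre* pools of *Col4a1*, *Col4a6* and *Hspg2* lie below all *FVB/N* pools, whereas *Col4a3* and *Col4a4* show a wide spread in *FVB/N*, where replicate 1 is highest.

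Compared directly, *Le-Cre* and *P0-3.9GFPCre* lenses had 0 of the 35 genes called, against 0% of all genes tested, and 1 gene at an unadjusted p under 0.05 by edgeR, against 7.88% of all genes (4.25% with lower and 3.63% with higher values). DESeq2 called 0 and had 3 at an unadjusted p under 0.05, against 4.10% of all genes without a prior and 3.74% with one. With limma on log2(TPM + 0.5) 0 were called and 2 had such a p, against 7.26% of all genes. The 1 gene by edgeR was *Col4a4*, at 86.2, 88.7 and 102 CPM in *Le-Cre* against the 72.9 to 83.2 CPM given above, so the groups did not overlap. Its log2 fold change was 0.24 (SE 0.107, edgeR unadjusted p = 0.0466, adjusted p = 0.623). *Col4a3* had a log2 fold change of 0.27 (SE 0.130, edgeR unadjusted p = 0.0604), with overlapping pools. The 4 genes that had the smallest p in *Le-Cre* against *FVB/N* were not separated between the transgenic lines: the log2 fold change was -0.07 for *Col4a1*, -0.14 for *Col4a2*, -0.06 for *Col4a6* and -0.06 for *Hspg2*, with edgeR unadjusted p of 0.244, 0.0959, 0.345 and 0.444. Pools did not overlap for 3 of the 35 genes (8.57%), against 14.1% of all genes tested (7.37% lower and 6.74% higher), and these were *Col4a4* and *Lama3*, higher in *Le-Cre*, and *Col4a5*, lower in *Le-Cre*. The 95% interval lay inside 1.5-fold for 26 of the 35 genes.

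Ratios between partner chains were described over the 9 pools. In TPM, which is per length, *Col4a1* to *Col4a2* ranged from 1.25 to 1.73 with a median of 1.60, *Col4a5* to *Col4a6* from 1.31 to 1.59 and *Lamb1* to *Lamc1* from 1.19 to 1.82. The ratio of *Col4a3* to *Col4a4* was steady in reads, from 0.389 to 0.499 of CPM, but ranged from 0.937 to 2.05 in TPM, where the effective length of *Col4a3* enters. *Nid1* exceeded its paralog *Nid2* by 171 to 323 times in TPM, and *Lamb1* exceeded *Lamb2* by 7.37 to 14.7 times. The ratio of *Lama1* to *Lama5*, α chains of related laminins, was 1.29 ± 0.145 in TPM in *FVB/N*, 1.69 ± 0.0681 in *P0-3.9GFPCre* and 1.55 ± 0.0415 in *Le-Cre* (SD, n = 3). In the pools of both transgenic lines this ratio lay above all *FVB/N* pools, in TPM and in CPM, and it was singled out after its values were seen, so no test is given.

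**Figure D4:**
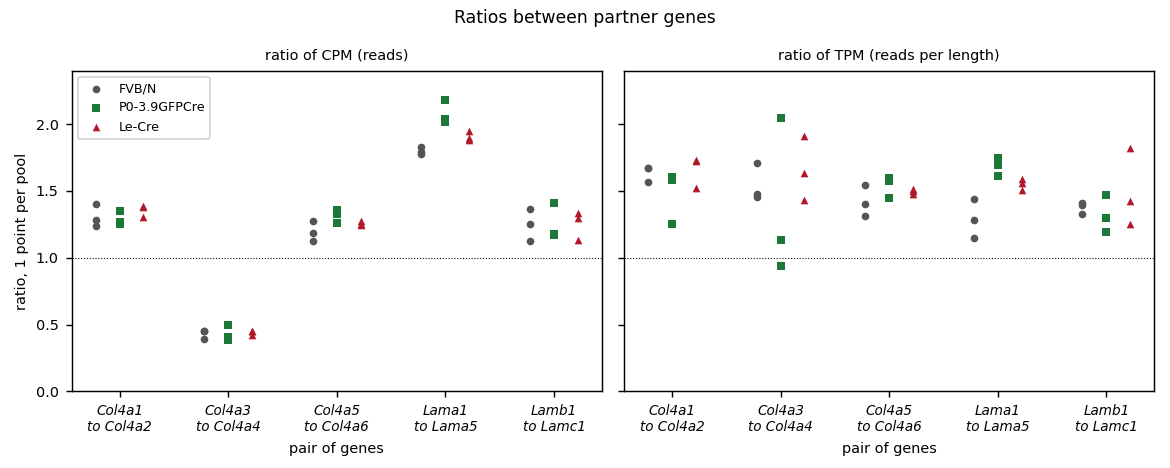
Ratios between partner genes in each of the 9 pools, in CPM (left) and in TPM (right), with the dotted line at a ratio of 1. *Col4a1* to *Col4a2* and *Col4a5* to *Col4a6* stay above 1 on both scales, and *Lama1* to *Lama5* is lowest in *FVB/N*. *Col4a3* to *Col4a4* is below 1 in CPM and above 1 in TPM, except in *P0-3.9GFPCre* replicate 2, where it is 0.937 in TPM.

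Further genes of matrix and adhesion were described by lists, with their members named by the 3 smallest unadjusted p under 0.05. No gene of these lists was called in any comparison. The lists were chosen with earlier results of these data known. A share above that of all genes, here and in the lists below, is therefore a description and not a test. The list for collagen folding, processing and crosslinking had 25 of its 27 genes tested. In *Le-Cre* against *FVB/N*, 9 of the 25 (36%) had an edgeR unadjusted p under 0.05, 6 with lower and 3 with higher values, against 7.94% of all genes. *P4ha1*, a subunit of the prolyl hydroxylase that stabilises collagen helices, was at 734, 713 and 773 CPM in *FVB/N* and at 566, 598 and 618 CPM in *Le-Cre*. Its groups did not overlap, and its log2 fold change was -0.32 (SE 0.0688, edgeR adjusted p = 0.214). *Loxl2*, a lysyl oxidase that crosslinks collagen, was at 35.3, 38.8 and 40.9 CPM in *FVB/N* and at 28.5, 30.5 and 28 CPM in *Le-Cre*, again without overlap, with a log2 fold change of -0.40 (SE 0.0785, edgeR adjusted p = 0.166). *Colgalt2*, a collagen galactosyltransferase, had a log2 fold change of -0.31 (SE 0.0905, edgeR adjusted p = 0.384). In *P0-3.9GFPCre* against the same *FVB/N* pools, 5 of the 25 (20%) had such a p, against 6.81% of all genes, 4 with lower and 1 with higher values, and the log2 fold changes were -0.25 for *P4ha1*, -0.22 for *Loxl2* and -0.46 for *Colgalt2* (edgeR adjusted p = 0.590, 0.651 and 0.510). The median over the 25 genes was -0.04 and -0.0015 in these comparisons. Between *Le-Cre* and *P0-3.9GFPCre* 5 of the 25 (20%) had such a p, against 7.88% of all genes, 2 with lower and 3 with higher values in *Le-Cre*. The smallest p belonged to *Sec24d*, *P4ha2* and *Crtap*, with log2 fold changes of 0.24, 0.22 and 0.22 (edgeR adjusted p = 0.516, 0.531 and 0.604). With the Y-linked share in the fit, the *Le-Cre* against *FVB/N* log2 fold change was -0.22 for *Loxl2* (edgeR unadjusted p = 0.0986) and -0.23 for *P4ha1* (edgeR unadjusted p = 0.0826). In that fit 3.45% of all genes had an unadjusted p under 0.05.

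Of the other matrix and basement membrane genes, 23 of 34 were tested. *Thbs1* (thrombospondin-1, a matricellular protein that binds integrins) was at 141.9, 142.5 and 124.8 CPM in *FVB/N*, 129.8, 152 and 128.5 CPM in *P0-3.9GFPCre* and 89.7, 94.4 and 97.7 CPM in *Le-Cre*. The *Le-Cre* pools lay below all others. Its log2 fold change against *FVB/N* was -0.54 (SE 0.0815, edgeR adjusted p = 0.0497), which passed the adjusted p but not the 1.5-fold part of the cutoff, and against *P0-3.9GFPCre* it was -0.54 (SE 0.0816, edgeR adjusted p = 0.200). *Tinagl1*, a basement membrane glycoprotein, had log2 fold changes of 0.35 in *Le-Cre* and 0.34 in *P0-3.9GFPCre*, each against *FVB/N* (edgeR adjusted p = 0.471 and 0.651), and the *Le-Cre* value was 0.15 with the Y-linked share in the fit. Of the 23 genes, 6 (26.1%) had an edgeR unadjusted p under 0.05 in *Le-Cre* against *FVB/N*, 2 with lower and 4 with higher values, where 7.94% of all genes had one. In *P0-3.9GFPCre* against *FVB/N* it was 3 (13%), 1 lower and 2 higher, against 6.81%, and between the transgenic lines it was 2 (8.70%), both lower in *Le-Cre*, which is near the 7.88% of all genes.

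Among 28 tested proteases and inhibitors of 31 listed, 6 (21.4%), 3 (10.7%) and 3 (10.7%) had such a p in the same order of comparisons, against 7.94%, 6.81% and 7.88% of all genes. *Htra1*, a secreted serine protease, was at 26.1, 23.0 and 25.5 CPM in *FVB/N* and at 36.2, 33.3 and 33.2 CPM in *Le-Cre*, with a log2 fold change of 0.46 (SE 0.111, edgeR adjusted p = 0.280), which was 0.10 with the Y-linked share in the fit (unadjusted p = 0.480). Against *P0-3.9GFPCre*, *Htra1* was higher in *Le-Cre* by 0.55 on the log2 scale (SE 0.112, edgeR adjusted p = 0.292), without overlap of pools. That difference ranged from 0.38 to 0.70 over the 18 alternatives, among them the fit with the Y-linked share. Its unadjusted p was under 0.05 in all 18. Between the transgenic lines *Adamts4*, an aggrecan-cleaving protease, had a log2 fold change of -1.50 (SE 0.361, edgeR adjusted p = 0.385) from 3.08 to 3.799 CPM in *Le-Cre* and 8.09 to 10.9 CPM in *P0-3.9GFPCre*, while *FVB/N* replicate 2, at 10.7 CPM, lay apart from the other *FVB/N* pools at 3.52 and 3.81 CPM. Of the 30 tested adhesion complex genes of 31 listed, 2 (6.67%), 2 (6.67%) and 5 (16.7%) had an edgeR unadjusted p under 0.05, the first and the second below the shares over all genes just given. *Src*, a kinase at integrin adhesions, was at 13.05, 14.9 and 13.3 CPM in *FVB/N*, 15.7, 19.9 and 17.7 CPM in *P0-3.9GFPCre* and 13.8, 13.6 and 12.2 CPM in *Le-Cre*, so its *P0-3.9GFPCre* pools lay above all others in CPM. Its log2 fold change in *P0-3.9GFPCre* was 0.37 (SE 0.107, edgeR adjusted p = 0.590). In TPM the *Src* pools overlapped, at 7.24, 8.66 and 4.23 in *FVB/N* and 5.61, 7.62 and 6.93 in *P0-3.9GFPCre*, and limma on log2(TPM + 0.5) gave 0.05 with an unadjusted p of 0.848. Of the 16 further integrin chains only 8 had enough counts to be tested, and 0, 0 and 1 had such a p, the last being the leukocyte chain *Itgam* at 0.975 to 3.17 CPM.

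**Figure D5:**
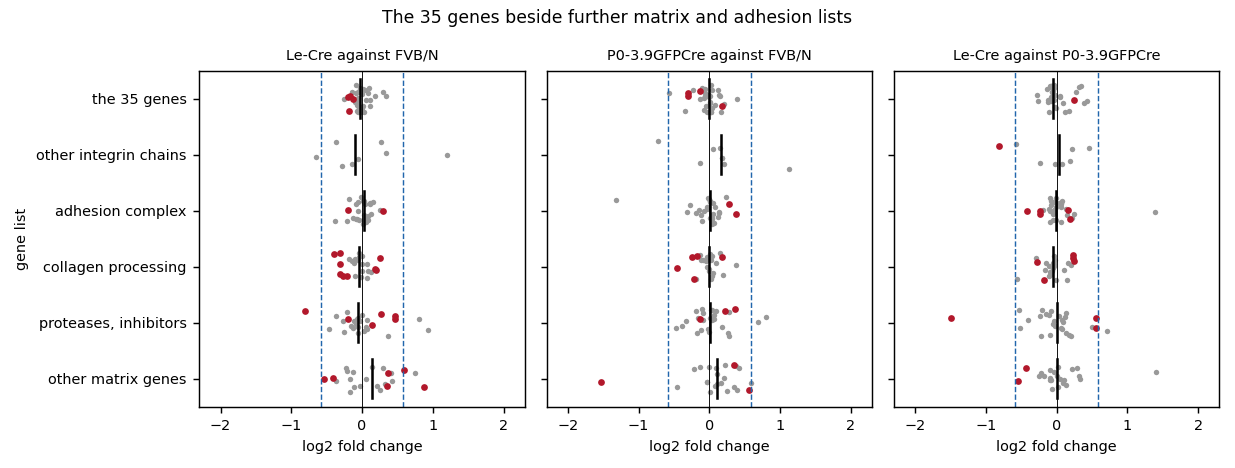
Log2 fold changes of the 35 genes and of the tested genes of 5 further lists in the 3 comparisons, 1 point per gene, with the median of each list as a black bar, red for an edgeR unadjusted p under 0.05 and dashed lines at 1.5-fold. The medians lie between -0.10 and 0.16, and the red points of the collagen processing list fall mostly to the left in *Le-Cre* against *FVB/N*, 6 lower and 3 higher.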

How the data were processed

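RNA-Seq libraries of polyadenylated RNA were made from 9 pools of newborn lenses. The authors trimmed the 51-base single-end reads with Trimmomatic 0.36, used GSNAP for mapping to GRCm38 and RSEM 1.3.0 for gene abundance, and their notes name DESeq2 1.10.1 for their own tests. The annotation behind the tables is not given in the sources used here. The deposited expected counts are RSEM's estimates of reads per gene without normalization, and a read that fits several genes is divided among them. The authors' TPM values are scaled by RSEM for effective transcript length and library size. Whether libraries kept the strand is not stated. Of the gene identifiers, 47310 matched GENCODE M21, the source of positions.

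Expected counts were rounded and tested in R 4.3.3 with edgeR 4.0.16 (TMM, filterByExpr, then glmQLFit and glmQLFTest on all 9 pools with a term for each line), with Benjamini-Hochberg adjustment over 15557 genes. A gene was called at 1.5-fold or more with an adjusted p of 0.05 or less, the study's cutoff. Standard errors were taken from F, as the size of the log2 fold change over the root of F, and intervals are 95% t intervals. CPM is the count scaled to the TMM-adjusted library size. DESeq2 1.42.0 with and without a normal prior and limma 3.58.1 on log2(TPM + 0.5) were among the alternatives, as were DESeq2 size factors, no filter or a mean of at least 10 counts, only the compared pools, a replicate block, the Y-linked share as a covariate, and leaving out each pool.

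Pools were grouped by line from their labels. The description of 1 *FVB/N* pool and its title carry different replicate numbers, of which the title's was kept. The members and lists were chosen with earlier results of these data known. A member was given pool values, fold change and p where its unadjusted p was under 0.05 in that comparison, and pool levels where it had the highest TPM of its role. Other genes were named as markers or as the 3 of a list with the smallest unadjusted p under 0.05, and of 1 list symbol with 2 identifiers the one with more counts was used. The labels call the pools biological replicates. CRE transcripts were not analysed here. A gene of the wider lists that this rule names is not reported here.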

Additional observations from a re-analysis of the deposited data

How the results depend on the processing

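None of the 35 genes was called in any comparison under any of the 18 alternatives, among them DESeq2 and limma. The number of the 35 with an unadjusted p under 0.05 was less stable. In *Le-Cre* against *FVB/N*, where it was 4, it was 1 with the Y-linked share in the fit and 1 to 5 when 1 pool was left out, with 2 without *FVB/N* replicate 1 and 1 without *FVB/N* replicate 2, *FVB/N* replicate 3, *Le-Cre* replicate 1 or *Le-Cre* replicate 2. Over all genes the share in this comparison was 3.45% with the Y-linked share and 6.31% to 7.92% when 1 pool was left out. In *P0-3.9GFPCre* against *FVB/N* the number of the 35 was also 4. It was 2 with only the compared pools, 2 with limma on TPM and 1 to 4 when 1 pool was left out, with 1 without *FVB/N* replicate 1 and 2 without *FVB/N* replicate 3, *P0-3.9GFPCre* replicate 1 or *Le-Cre* replicate 2. The shares over all genes were 6.47%, 7.78% and 4.67% to 7.61% in the same order. In *Le-Cre* against *P0-3.9GFPCre* the number of the 35 was 1. It was 3 with DESeq2 with or without a prior, 4 without a filter, 3 with only the compared pools, 2 with limma and 0 to 3 when 1 pool was left out, with 0 without *FVB/N* replicate 3 or *Le-Cre* replicate 2. The shares over all genes were 3.74% with and 4.10% without a prior, 6.01% without a filter, 8.33% with only the compared pools and 7.26% with limma. They were 5.74% to 8.44% when 1 pool was left out. The median log2 fold change of the 35 was -0.0795 with the Y-linked share in the fit in *Le-Cre* against *FVB/N* and 0.0613 with limma in *P0-3.9GFPCre* against *FVB/N*, and it lay between -0.0578 and -0.0157, -0.0550 (without *FVB/N* replicate 3) and 0.0121, and -0.0632 and -0.0218 in the 3 comparisons when 1 pool was left out. *Adam12*, a protease of the wider list, had 0.27 in *Le-Cre* against *FVB/N* and -0.0850 with the Y-linked share in the fit. *Adamts4* was called between the transgenic lines in 4 of the 18 alternatives (DESeq2 without a prior, no filter, only the compared pools, and without *FVB/N* replicate 2). The cause of these shifts was not tested.

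The correlations do not settle whether the replicate numbers pair the pools. Deviations from the line means had a mean correlation of 0.03 over 9 pairs with the same number (-0.10 to 0.12) and of -0.01 over 18 other pairs. Between *P0-3.9GFPCre* and *Le-Cre*, same-number pairs were at 0.103, 0.102 and 0.0462, and the other pairs between -0.0864 and -0.0172. Same-number pairs with *FVB/N* had both signs. In the fit with a replicate block, the count of the 35 genes with an unadjusted p under 0.05 was 2 in *Le-Cre* against *FVB/N*, 3 in *P0-3.9GFPCre* against *FVB/N* and 0 in *Le-Cre* against *P0-3.9GFPCre*, and 0 were called. Over all genes the shares with such a p in that fit were 7.52%, 6.74% and 7.74%.

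With 3 pools per line, the 95% intervals of 6, 9 and 9 of the 35 genes in the 3 comparisons reached beyond 1.5-fold, most of them genes of low count.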
